A study of Mus musculus with 6 samples.

Results

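Pparg, Cebpa, Cebpb, Cebpd, Zfp423, Ebf1, Ebf2, Klf4, Klf15 and Prdm16 encode transcription factors that act on the formation of fat cells. These 10 genes were taken by symbol from the 31053 genes counted in every library, and each symbol matched a single gene. The libraries were 6 single-cell RNA-seq libraries of stromal vascular cells from mouse inguinal white adipose tissue (iWAT), sorted as live cells without the immune marker CD45. The study asked how age alters the response of adipose stem and progenitor cells to cold, a stimulus that recruits beige fat cells in young animals.

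Young mice were 9 weeks old and aged mice 57 weeks old at the end of the experiment. All were C57BL/6 males without a labelled transgene or mutation, were acclimated at 30 °C for 3 weeks, and were housed singly for the 2 weeks that followed. Thermoneutral (TN) mice remained at 30 °C, 3D cold mice spent the last 3 of these days at 6 °C, and 14D cold mice spent 14 days at 6 °C. Each combination of age and temperature gave 1 library, and the methods say that stromal vascular cells of several mice were combined only where this is mentioned, which it is not for these libraries, and give no number of mice for them, so p-values measure the spread between these libraries. Age had 3 libraries a side, each temperature had 1 library of each age, and age by temperature could not be tested.

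Cells were placed in classes by marker genes, none of which was among the 10 genes. The classes were Dpp4+ fibroblasts (16749 cells), the progenitors of the interstitial adventitia; Icam1+ preadipocytes (17955 cells), the committed progenitors; Cd142+ fibroblasts (2719 cells), which carry the coagulation factor receptor F3; endothelial cells (3796 cells); and mural cells (718 cells), the smooth muscle cells and pericytes of vessel walls. The markers named next were used in the gates, so their shares describe the classes and do not test them. Pecam1 UMIs were found in 89.8% of endothelial cells and Rgs5 UMIs in 83.0% of mural cells, Pdgfra in 79.6% to 90.9% of the cells of each fibroblast class, and Ptprc, which encodes CD45, in at most 0.0501% of any class. Markers of the fibroblast classes were shared in part. Icam1 was found in 84.8% of Icam1+, 68.0% of Cd142+ and 39.6% of endothelial cells. F3 was found in 71.8% of Cd142+ and 22.7% of Icam1+ cells, and Dpp4 in 95.5% of Dpp4+ and 17.8% of Cd142+ cells. Levels below are counts per 1000000 (CPM): the unique molecular identifiers of a gene (UMIs, 1 per captured transcript) as a share of all UMIs of the same class in the same library, times 1000000. Because the kit counts 3′ ends, levels were compared between classes and libraries and not between genes.

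Libraries held 10172 to 12033 barcodes and 52068837 to 88508349 UMIs, and pairs of libraries shared 30 to 44 barcode sequences, at most 0.379% of the smaller library. The aged 14D cold library stood apart in depth, with a median of 2742 UMIs in its kept cells against 6726 to 9904 in the others. Its Dpp4+ and Icam1+ cells did not share this. Their medians of 7254 and 7246 UMIs lay within the 7014 to 7265 UMIs of the other aged libraries. Its Cd142+ cells had a median of 2638.5 UMIs. The aged TN library stood apart in clustering: 84.8% of its Dpp4+ cells and 79.4% of its Icam1+ cells lay in clusters (9 and 5) that held few cells of other libraries. Where leaving out either library changed a call, the value without it is given beside the result. In these sums a change in UMIs per cell and a change in which cells make up a class cannot be told apart.

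PPARγ, the product of Pparg, is a nuclear receptor that is required for fat cell formation, and together with C/EBPα, the product of Cebpa, it switches on the genes of lipid uptake and storage. C/EBPβ and C/EBPδ are induced early after an adipogenic stimulus and act ahead of both. Zfp423 and Ebf1 act on commitment to the lineage, Ebf2 and Prdm16 on the brown and beige programme, and Klf4 and Klf15 are Krüppel-like factors that act respectively early and late in differentiation.

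UMIs read from the 3′ end do not tell the alternative starts of Pparg apart, so 2 of its starts are shown to make clear what a Pparg value pools. The sequences are the 250 bases before the RefSeq start in GRCm38.p6, on the plus strand, written 5′ to 3′. Capitals mark the C/EBP motif TTNNGCAA on either strand. The upstream start holds no match, and the downstream start holds matches at positions -215 and -16 from the first transcribed base. Among 32851 promoters of the same length, 9.56% held at least 1 match and 0.572% at least 2.
Pparg, upstream start, chr6:115360894-115361143: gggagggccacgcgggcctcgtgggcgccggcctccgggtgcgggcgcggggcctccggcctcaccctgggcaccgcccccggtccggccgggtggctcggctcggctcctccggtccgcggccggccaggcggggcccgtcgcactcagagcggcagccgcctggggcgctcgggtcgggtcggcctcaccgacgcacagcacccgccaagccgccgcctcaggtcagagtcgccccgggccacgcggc
Pparg, downstream start, chr6:115421816-115422065: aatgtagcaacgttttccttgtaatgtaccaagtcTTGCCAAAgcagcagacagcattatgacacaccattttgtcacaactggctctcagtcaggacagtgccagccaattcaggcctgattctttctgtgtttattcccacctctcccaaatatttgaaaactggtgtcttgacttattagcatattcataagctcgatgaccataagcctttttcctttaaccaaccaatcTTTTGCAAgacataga

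The promoter of Cebpb is shown because this gene gave the age differences seen in more than 1 class. Capitals mark TGACG or its reverse complement CGTCA, which lie at positions -180, -53 and -7. This motif is a part of the cAMP response element and not the whole of it. It was present in 17.8% of the 32851 promoters, and 3 or more times in 0.688%. Promoter sequence was matched for 8 of the 10 genes, with none for Cebpd and Ebf2. A match describes letters and not a bound site.
Cebpb, chr2:167688665-167688914: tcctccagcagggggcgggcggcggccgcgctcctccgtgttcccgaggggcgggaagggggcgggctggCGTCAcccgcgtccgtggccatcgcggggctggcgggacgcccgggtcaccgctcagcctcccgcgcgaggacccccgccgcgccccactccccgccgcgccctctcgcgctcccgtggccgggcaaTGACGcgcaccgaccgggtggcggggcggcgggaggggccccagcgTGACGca

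Gene positions below are those of the GENCODE annotation of GRCm38. Pparg (ENSMUSG00000000440, chr6:115360951-115490399, plus strand) was the gene whose level differed most between the fibroblast classes. In Dpp4+ fibroblasts the young TN, 3D cold and 14D cold libraries had 2.22, 2.35 and 2.35 CPM and the aged libraries, in the same order, 2.00, 2.57 and 2.71 CPM. In Icam1+ preadipocytes these values were 45.1, 49.0 and 44.96 CPM in young mice and 51.0, 52.6 and 49.6 CPM in aged mice. Every Icam1+ library thus lay far above every Dpp4+ library. Cd142+ fibroblasts lay between them, with 13.8, 11.9 and 14.7 CPM in young and 26.8, 17.99 and 20.1 CPM in aged mice. The highest levels were in the vessel classes: endothelial cells had 314, 343 and 351 CPM in young and 306, 387 and 424 CPM in aged mice, and mural cells had 180.2, 247 and 218 CPM in young and 165, 211 and 147 CPM in aged mice. From highest to lowest the order was endothelial cells (354 ± 45 CPM, SD, n = 6 libraries), mural cells (194 ± 37.2), Icam1+ preadipocytes (48.7 ± 3.11), Cd142+ fibroblasts (17.5 ± 5.39) and Dpp4+ fibroblasts (2.37 ± 0.253). No neighbours in this order overlapped.

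**Figure D1:**
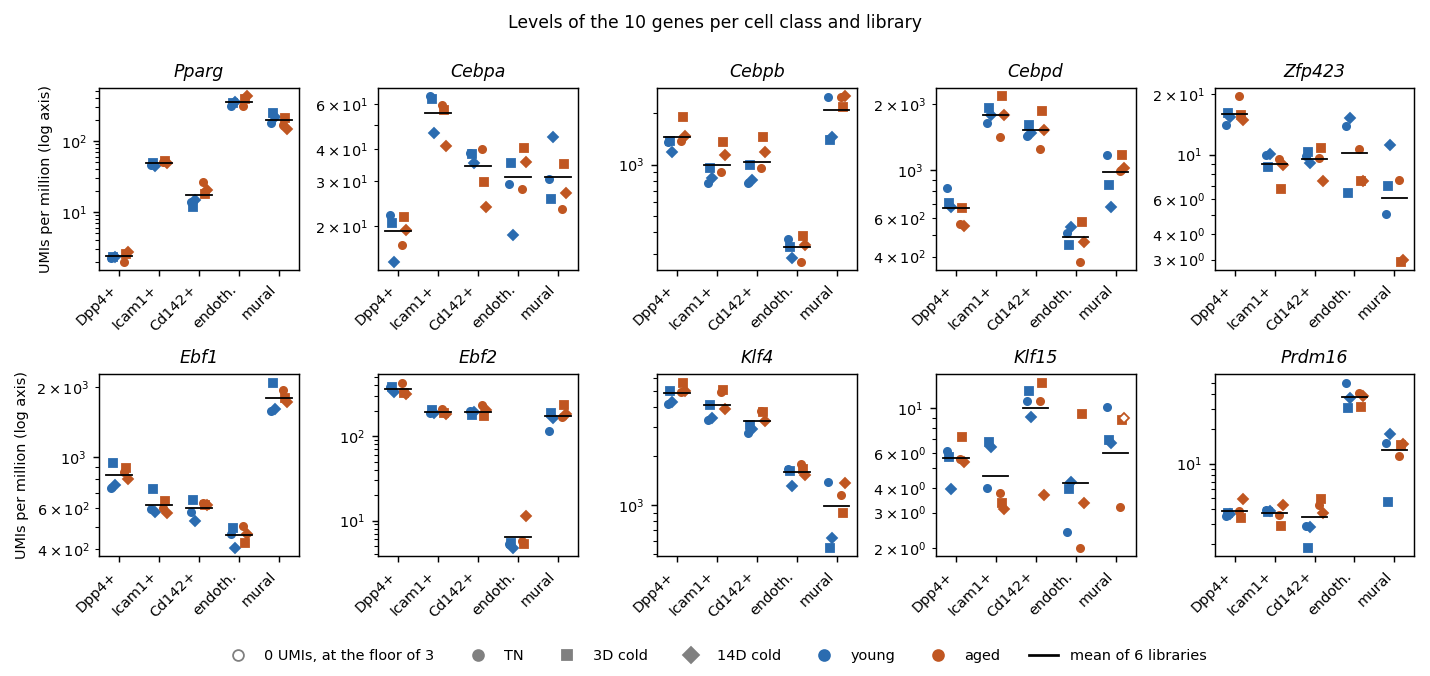
Levels of the 10 genes in the 6 libraries of each class, with 1 panel per gene, the 5 classes on the horizontal axis and CPM on a logarithmic vertical axis. Each point is 1 library, coloured by age and shaped by temperature, and an open marker stands for a library with 0 UMIs, drawn at the floor of 3 UMIs, and the bar marks the mean of the 6 libraries. Pparg spans from 2.00 CPM in a Dpp4+ library to 424 CPM in an endothelial library, while Zfp423 and Klf15 overlap across most classes.

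Differences between classes were fitted by edgeR's quasi-likelihood method over the 30 sums of 5 classes and 6 libraries, with the library as a block and Benjamini-Hochberg adjustment over all 12736 genes tested. Icam1+ preadipocytes had 21.2-fold more Pparg than Dpp4+ fibroblasts (log2 fold change 4.41 ± 0.12, SE, adjusted p = 1.35e-22), higher in 6 of 6 libraries. Cd142+ fibroblasts had 7.37-fold more than Dpp4+ fibroblasts (log2 2.88 ± 0.16) and 2.89-fold less than Icam1+ preadipocytes (log2 -1.53 ± 0.12). The mean of the 3 fibroblast classes was 22.9-fold below endothelial cells (log2 -4.52 ± 0.079) and 11.7-fold below mural cells (log2 -3.55 ± 0.11). These calls held in all alternatives run, and their sizes moved most with stricter gates (5.29 for Icam1+ over Dpp4+, -2.32 for Cd142+ against Icam1+) and with clusters in place of gates (-2.94 against mural cells).

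Mature adipocyte genes, taken as a sum, moved with these classes. The summed level of 8 mature adipocyte genes (Adipoq, Plin1, Cidec, Plin4, Lep, Retn, Car3, Cfd) ranged over libraries from 496 to 2227 CPM in endothelial cells, 103 to 414 CPM in mural cells, 57.0 to 127 CPM in Icam1+ preadipocytes, 18.6 to 88.7 CPM in Cd142+ fibroblasts and 7.21 to 21.8 CPM in Dpp4+ fibroblasts. In Icam1+ preadipocytes Car3 (46.2 CPM) and Plin4 (33.3 CPM) made up most of the mean sum of 86.9 CPM. Both were lower in Cd142+ (21.8 and 10.7 CPM) and Dpp4+ cells (5.28 and 1.93 CPM). Adipoq, Plin1, Cidec, Lep and Retn averaged at most 1.034 CPM in each fibroblast class, and Cfd 4.36 to 7.71 CPM. All 8 genes had UMIs in every class except Lep, which was at 0 in Cd142+ fibroblasts. At least 1 such UMI was found in 46.3% of endothelial cells and 26.5% of Icam1+ cells, against 3.66% of Dpp4+ cells. In the 2038 endothelial cells without any, Pparg was still at 263 ± 40.9 CPM, and in such Icam1+ and Dpp4+ cells it was at 46.2 and 2.18 CPM. The fibroblast classes then differed from endothelial cells by a log2 fold change of -4.21 and from mural cells by -3.76, both past the threshold.

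Cebpa (ENSMUSG00000034957, chr7:35119293-35121928, plus strand) was highest in Icam1+ preadipocytes, with 64.6, 62.8 and 46.2 CPM in the young TN, 3D cold and 14D cold libraries and 59.7, 57.3 and 41.4 CPM in the aged ones. Dpp4+ fibroblasts were the lowest, at 14.5 to 22.0 CPM, and Cd142+ fibroblasts lay between, at 23.8 to 40.2 CPM. Icam1+ libraries lay above all Cd142+ and endothelial libraries (18.5 to 40.6 CPM) and overlapped the mural ones (23.4 to 44.9 CPM), which rest on 9 to 22 UMIs each. Icam1+ preadipocytes had 3.02-fold more Cebpa than Dpp4+ fibroblasts (log2 1.60 ± 0.095) and Cd142+ fibroblasts 1.88-fold more (log2 0.91 ± 0.12), both past the threshold, and Cd142+ lay below Icam1+ (log2 -0.69 ± 0.11). Across the 18 fibroblast sums, which share libraries, log2 levels of Cebpa and Pparg had a Pearson correlation of 0.92, against 0.36 over all 30 sums.

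**Figure D2:**
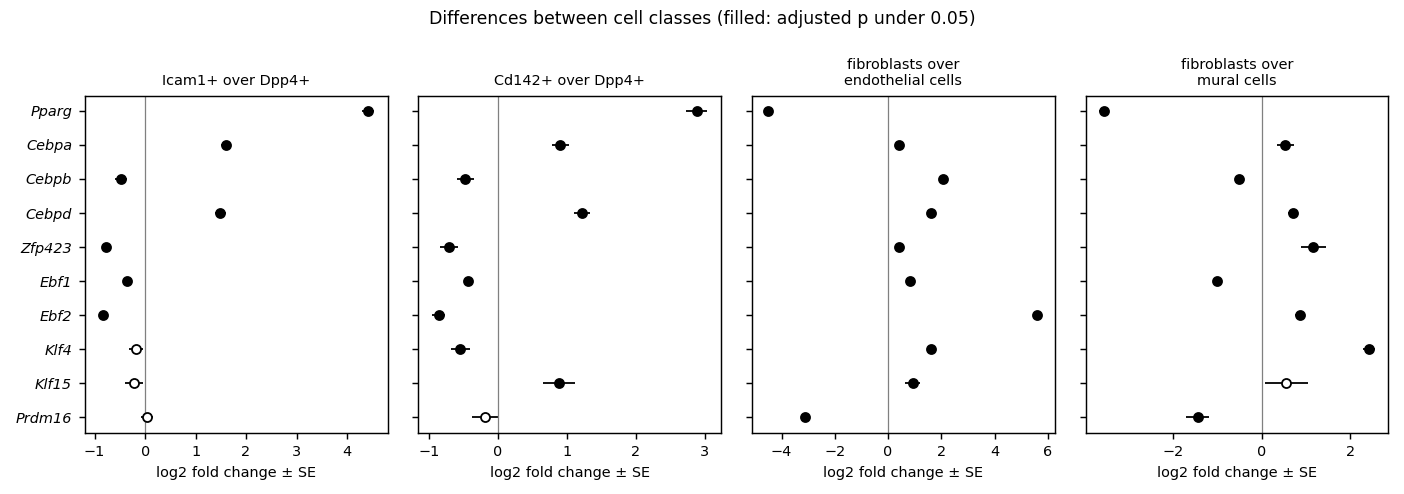
Log2 fold change between classes (horizontal axis) for each of the 10 genes (vertical axis), in 1 panel per contrast, with bars of 1 standard error and filled points where the adjusted p was under 0.05. In the panel of Icam1+ against Dpp4+ cells, the filled points are Pparg (4.41), Cebpa (1.60) and Cebpd (1.49) to the right and 4 genes to the left.

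Cebpb (ENSMUSG00000056501, chr2:167688915-167690418, plus strand), an early C/EBP factor, had the reverse order among fibroblasts. It ranged from 1193 to 1914 CPM in Dpp4+ fibroblasts, from 781 to 1352 CPM in Icam1+ preadipocytes and from 774 to 1458 CPM in Cd142+ fibroblasts, so these libraries overlapped. Within libraries Icam1+ lay 1.40-fold below Dpp4+ (log2 -0.48 ± 0.12, adjusted p = 0.000818) and Cd142+ lay 1.39-fold below (log2 -0.47 ± 0.12). The second of these calls was lost when clusters took the place of gates (log2 -0.23). Mural cells were highest, at 1392 to 2517 CPM, and endothelial cells lowest, at 269 to 380.4 CPM, with a log2 difference of 2.07 ± 0.11 between fibroblasts and endothelial cells.

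Cebpd (ENSMUSG00000071637, chr16:15887286-15891031, plus strand), the other early factor, followed Cebpa instead. Icam1+ preadipocytes had 1419.5 to 2173 CPM, Cd142+ fibroblasts 1249 to 1853 CPM and Dpp4+ fibroblasts 551 to 824 CPM, so every Dpp4+ library lay below every Icam1+ and Cd142+ library. Icam1+ lay 2.80-fold above Dpp4+ (log2 1.49 ± 0.11) and Cd142+ 2.33-fold above (log2 1.22 ± 0.11). The Cd142+ libraries were below their own Icam1+ library in 6 of 6 cases, but this difference did not pass the threshold (log2 -0.27 ± 0.11, adjusted p = 0.0707). It passed without a filter on low counts, with all barcodes and with stricter gates (adjusted p = 0.0252, 0.0196 and 0.0291). Endothelial cells had 379 to 578 CPM and mural cells 673 to 1168 CPM. Over the 18 fibroblast sums the correlation of log2 levels with Pparg was 0.92 for Cebpd and -0.61 for Cebpb.

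Ebf2 (ENSMUSG00000022053, chr14:67233292-67430918, plus strand), which marks and drives the brown and beige fat lineage, was high in every fibroblast class and low in endothelial cells. Dpp4+ fibroblasts had 378, 387 and 335 CPM in young and 432, 328 and 319.6 CPM in aged mice. Icam1+ preadipocytes had 183 to 212 CPM and Cd142+ fibroblasts 172 to 232 CPM, below every Dpp4+ library. Endothelial cells had 4.74 to 5.77 CPM in 5 libraries and 11.4 CPM, from 17 UMIs, in the aged 14D cold library. The fibroblast classes lay 48.8-fold above endothelial cells (log2 5.61 ± 0.14), a size that was 3.76 with clusters in place of gates and 6.25 in cells without adipocyte UMIs. Icam1+ lay 1.78-fold below Dpp4+ (log2 -0.83 ± 0.092). Mural cells, at 117 to 231 CPM, overlapped both of the lower fibroblast classes, and the contrast of the 3 fibroblast classes with mural cells was 0.86 ± 0.0998 on the log2 scale.

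Ebf1 (ENSMUSG00000057098, chr11:44617317-45008091, plus strand), an early B-cell factor that promotes adipogenesis, was highest in mural cells. Mural libraries had 1576 to 2086 CPM and Dpp4+ libraries 736 to 938 CPM, while Icam1+ (572 to 724 CPM) and Cd142+ libraries (528 to 649 CPM) overlapped each other and lay below every Dpp4+ library. Endothelial libraries had 405 to 505 CPM, below all fibroblast libraries. The fibroblast classes were 2.01-fold below mural cells (log2 -1.01 ± 0.046) and 1.79-fold above endothelial cells (log2 0.84 ± 0.050).

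Zfp423 (ENSMUSG00000045333, chr8:87661810-87959595, minus strand), a zinc finger protein of preadipocyte commitment, was a low gene with 14.0 to 19.5 CPM in Dpp4+ fibroblasts and 6.71 to 10.0 CPM in Icam1+ preadipocytes. It was lower in Icam1+ (log2 -0.77 ± 0.093) and Cd142+ cells (log2 -0.71 ± 0.13) than in Dpp4+ cells. Mural libraries held only 1 to 7 UMIs of it, at 2.93 to 11.2 CPM. The call of 0.41 ± 0.13 against endothelial cells ended without the young 3D cold library (log2 0.30, adjusted p = 0.0591), in cells without adipocyte UMIs (log2 0.30, adjusted p = 0.109) and without normalization factors. Against mural cells the call of 1.16 was 0.52 with clusters in place of gates.

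Prdm16 (ENSMUSG00000039410, chr4:154316125-154636873, minus strand), a cofactor that sets brown and beige fat identity and is also known from arterial endothelium, was at 1.85 to 4.95 CPM in all 18 fibroblast sums. Endothelial cells had 50.7, 30.8 and 37.0 CPM in young and 41.0, 31.1 and 38.9 CPM in aged mice, and mural cells 4.66 to 17.96 CPM from 2 to 11 UMIs. All endothelial libraries lay above all mural libraries. The fibroblast classes were 8.71-fold below endothelial cells (log2 -3.12 ± 0.10) and 2.72-fold below mural cells (log2 -1.44 ± 0.25), and the 3 fibroblast classes did not differ past the threshold from one another. With all barcodes over 200 genes the difference from mural cells was -3.30. In endothelial cells without adipocyte UMIs Prdm16 was at 44.0 ± 6.35 CPM.

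Klf4 (ENSMUSG00000003032, chr4:55527143-55532466, minus strand), which activates Cebpb early in adipogenesis and is also a factor of vascular cells, ranged from 4129 to 5622 CPM in Dpp4+ fibroblasts, 3319 to 5036 CPM in Icam1+ preadipocytes and 2749 to 3772 CPM in Cd142+ fibroblasts. Within each of the 6 libraries the order was the same, although libraries of different classes overlapped. Cd142+ lay below Dpp4+ (log2 -0.54 ± 0.14), whereas the difference of -0.18 ± 0.14 between Icam1+ and Dpp4+ did not pass. Against Icam1+ the Cd142+ value of -0.37 ± 0.14 passed narrowly (adjusted p = 0.0492) and was lost in 9 alternatives, including the removal of any of the 6 libraries (log2 -0.39 to -0.33). Endothelial libraries had 1316 to 1774 CPM and mural libraries 547 to 1383 CPM, and the fibroblast classes lay above both (log2 1.61 ± 0.12 and 2.42 ± 0.14). The difference from mural cells was 0.99 with clusters in place of gates and 1.49 with all barcodes over 200 genes, and stayed past the threshold in both.

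Klf15 (ENSMUSG00000030087, chr6:90462576-90475238, plus strand), a glucocorticoid-induced factor that promotes late differentiation and glucose uptake, was low in every class. Cd142+ fibroblasts had 9.03 to 13.5 CPM in 5 libraries and 3.69 CPM, from 7 UMIs, in the aged 14D cold library. Dpp4+ and Icam1+ libraries had 3.93 to 7.19 and 3.15 to 6.76 CPM, and mural libraries held 0 to 4 UMIs. Cd142+ lay above Dpp4+ (log2 0.89 ± 0.23) and above Icam1+ (log2 1.11 ± 0.23), but both calls were lost with cells thinned to 2000 UMIs (log2 0.68 and 0.77, adjusted p = 0.138 and 0.142). The call of 0.92 against endothelial cells was lost there too (log2 0.66, adjusted p = 0.0950). With clusters in place of gates Icam1+ was called below Dpp4+ (log2 -0.45, adjusted p = 0.0363).

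In total 7 of the 10 genes differed between Icam1+ and Dpp4+ cells, 3 higher and 4 lower, where 65.1% of all genes tested differed, 32.3% higher and 32.8% lower. Between Cd142+ and Dpp4+ cells 9 differed (4 higher, 5 lower; background 49.1%, with 24.5% higher and 24.6% lower). Between Cd142+ and Icam1+ cells 4 differed (1 higher, 3 lower; background 26.5%, with 13.5% higher and 13.0% lower), and with clusters in place of gates Cebpb and Zfp423 were called higher in Cd142+ cells as well (log2 0.31 and 0.29, adjusted p = 0.0174 and 0.0310). All 10 differed between the fibroblast classes and endothelial cells (8 higher, 2 lower; background 78.2%, with 40.4% higher and 37.8% lower), and 9 between the fibroblast classes and mural cells (5 higher, 4 lower; background 58.6%, with 31.6% higher and 27.0% lower). Cebpa was called 1.44-fold above mural cells (log2 0.53 ± 0.19), a call that ended in 7 alternatives, among them the removal of young TN (0.50), young 3D cold (0.45) or aged TN (0.41). That contrast averaged fibroblast classes on both sides of mural cells. Mean Cebpa was 55.3 CPM in Icam1+, 34.3 in Cd142+ and 19.2 in Dpp4+ cells, against 31.1 in mural cells. Mural cells lay above Dpp4+ cells in 6 of 6 libraries, without overlap. Without normalization factors the median of all genes moved by -0.28 against endothelial cells and -0.38 against mural cells, and higher calls fell from 51.7% to 38.0% and from 53.9% to 32.6% of all calls. Cebpa and Zfp423 then each differed from endothelial cells by only 0.12 and were not called.

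The summed level of genes that PPARγ and C/EBPα switch on ran with Pparg across classes, and a few genes made up most of it. The summed level of 18 such genes averaged 607 CPM in Dpp4+ fibroblasts, 6679 CPM in Icam1+ preadipocytes, 3226 CPM in Cd142+ fibroblasts, 59457 CPM in endothelial cells and 22827 CPM in mural cells, which is the order of Pparg itself. Fabp4 alone gave 50536 CPM in endothelial and 20136 CPM in mural cells, and Lpl (3540 CPM) and Fabp4 (2063 CPM) gave most of the Icam1+ sum. Not every gene followed this order: Lpl and Plin2 were highest in Icam1+ cells (3540 and 488 CPM, against 587 and 441 CPM in endothelial cells). Between Icam1+ and Dpp4+ cells 14 of the 18 differed, 11 higher and 3 lower, with a median of 0.92 against 0.00 over all genes. Of all genes tested, 65.1% differed there, 32.3% higher and 32.8% lower. The largest were Fabp4 (log2 4.51), a fatty acid binding protein, Cd36 (4.38), a fatty acid transporter, Lpl (3.78), lipoprotein lipase, and Plin2 (3.45), a lipid droplet coat protein. Against endothelial cells all 18 differed, 16 of them lower in fibroblasts, with a median of -2.83 against 0.03 over all genes. Of all genes tested, 78.2% differed there, 40.4% higher and 37.8% lower in fibroblasts. The correlation of log2 Pparg with the log2 sum was 0.989 over the 30 sums, and that of Cebpa was 0.34 (0.90 over the 18 fibroblast sums). Within a class, over its 6 libraries, it was 0.24 in Dpp4+, 0.17 in Icam1+, 0.55 in Cd142+, 0.94 in endothelial and 0.66 in mural cells, values that share their libraries and are given as a description. For Cebpa the values within a class ran from -0.86 in Icam1+ to 0.57 in endothelial cells.

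**Figure D3:**
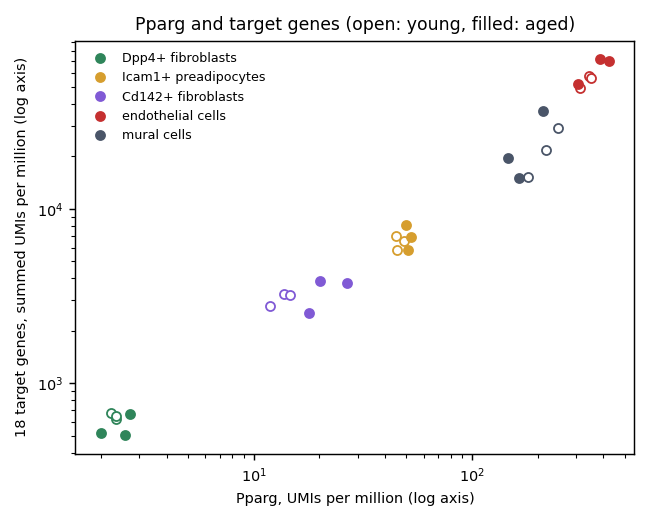
Pparg level (horizontal axis, CPM, logarithmic) against the summed level of 18 genes switched on by PPARγ and C/EBPα (vertical axis, CPM, logarithmic), with 1 point for each class and library, coloured by class, open for young and filled for aged libraries. The 5 classes form separate groups along a rising line (r = 0.989 over 30 sums), and the 6 points within the Icam1+ group show little relation (r = 0.17).

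The other regulators fixed with the 10 genes were mixed in direction between Icam1+ and Dpp4+ cells. Of 21 pro-adipogenic regulators 11 were higher and 5 lower (median 0.30), led by Egr2 (log2 2.46), Nr1h3 (1.28), Nfib (1.02) and Stat5a (0.89). Of 22 anti-adipogenic regulators tested 8 were higher and 10 lower (median -0.04), with Sox9 at 2.48 and Irx5, Irx3 and Klf3 at -2.25, -2.05 and -1.83. Of 13 beige and thermogenic regulators tested 6 were higher and 4 lower, with Irf4 at -2.98 and Plac8 at -2.63, and of 5 thermogenic genes 2 were higher and 1 lower, with Cox8b at 7.35. Genes known to rise during tissue dissociation were higher in 11 and lower in 3 of 16, and glucocorticoid-responsive genes higher in 4 and lower in 3 of 10. Over all genes 32.3% were higher and 32.8% lower.

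The share of cells with a UMI was measured after each cell was thinned to 2000 UMIs, which left out the 46 to 315 cells of a class below that depth. Pparg was then found in 0.466% of Dpp4+ cells (mean of 6 libraries), 8.78% of Icam1+ cells, 2.89% of Cd142+ cells, 47.3% of endothelial cells and 31.1% of mural cells. Without thinning the Icam1+ share was 30.6%. In the young TN library 203 of 2378 Icam1+ cells had a Pparg UMI (8.54%, exact 95% interval 7.44 to 9.73%) against 17 of 2966 Dpp4+ cells (0.573%, 0.334 to 0.916%), intervals that cover counting error only. Ebf2 UMIs were in 49.4% of Dpp4+, 31.5% of Icam1+, 31.2% of Cd142+ and 31.6% of mural cells, against 0.952% of endothelial cells, and Klf4 UMIs in 95.9% to 99.03% of the cells of each fibroblast class. Prdm16 was in 0.767% to 0.808% of cells in the fibroblast classes and 7.004% of endothelial cells. Within Icam1+ cells, Cebpa was found in 12.8%, 11.5%, 10.4%, 11.0%, 10.3% and 8.05% of cells with a Pparg UMI (young TN, 3D cold, 14D cold, then aged in the same order) and in 10.8%, 11.4%, 8.05%, 11.2%, 10.8% and 7.13% of cells without. The share was higher among cells with a Pparg UMI in 4 of 6 libraries.

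Few of the 10 genes passed the test of age, and Cebpb was the gene called in more than 1 class. The fit of age within a class took its 6 sums and a temperature term, with 2 degrees of freedom left for the spread. In Icam1+ preadipocytes Cebpb had 781, 954 and 835 CPM in young mice (TN, 3D cold, 14D cold) and 908, 1352 and 1140.0 CPM in aged mice. The aged library was higher at 3 of 3 temperatures, although the young 3D cold library lay above the aged TN library. In Cd142+ fibroblasts the values were 774, 989 and 816 CPM in young and 960.0, 1458 and 1185 CPM in aged mice, again higher at 3 of 3 temperatures and with the same overlap. Cebpb rose 1.32-fold with age in Icam1+ preadipocytes (log2 0.40 ± 0.090, adjusted p = 0.0209) and 1.39-fold in Cd142+ fibroblasts (log2 0.48 ± 0.097, adjusted p = 0.00920). In Dpp4+ fibroblasts the 1354, 1382 and 1193 CPM of young mice stood against 1380.0, 1914 and 1477 CPM in aged mice, which did not pass (log2 0.24 ± 0.086, adjusted p = 0.0786).

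The Cebpb calls depended on the temperature term and on several libraries. With no temperature term the adjusted p was 0.219 in Icam1+ and 0.148 in Cd142+ cells. In Icam1+ cells the call was lost without young or aged 3D cold (log2 0.33 in each case, adjusted p = 0.149 and 0.145) and without young or aged 14D cold (log2 0.37 in each case, adjusted p = 0.0836 and 0.0867), and it held without aged TN (log2 0.51, adjusted p = 0.00709). In Cd142+ cells it was lost without young or aged 3D cold (log2 0.41 in each case, adjusted p = 0.220 and 0.208). In Dpp4+ cells a call appeared without young TN, aged TN or young 14D cold (adjusted p = 0.00683, 0.00661 and 0.0143), in cells thinned to 2000 UMIs (log2 0.25, adjusted p = 0.0177), with stricter gates (adjusted p = 0.0284), without a filter on low counts (adjusted p = 0.0137) and without normalization factors (adjusted p = 0.0305). DESeq2 called Cebpb in Icam1+ and Cd142+ cells (adjusted p = 0.000945 and 0.00388).

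Cebpd was lower with age in Dpp4+ fibroblasts, with 824, 703 and 677 CPM in young and 565, 669 and 551 CPM in aged mice. All aged libraries lay below all young ones, by a fold of 1.26 (log2 -0.33 ± 0.085, adjusted p = 0.0180). Without aged TN the value was -0.23 with an adjusted p of 0.0514, and without aged 14D cold it was -0.31 (adjusted p = 0.0450). Leaving out aged TN also leaves young TN, the highest library at 824 CPM, without weight in the age test. The value without aged TN therefore cannot single out the separate clustering of that library. With no temperature term the adjusted p was 0.141. In Icam1+ and Cd142+ cells the Cebpd values were 0.01 ± 0.10 and 0.03 ± 0.11.

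Pparg was higher in every aged than in every young library in both Icam1+ preadipocytes and Cd142+ fibroblasts, but passed the threshold only in the latter. The young and aged means were 46.4 and 51.1 CPM in Icam1+ cells (log2 0.15 ± 0.059, adjusted p = 0.124) and 13.5 and 21.6 CPM in Cd142+ cells (log2 0.69 ± 0.17, adjusted p = 0.0290). The Cd142+ sums held 38 to 86 Pparg UMIs. That call was lost in 10 alternatives, among them DESeq2 (adjusted p = 0.708), cells thinned to 2000 UMIs (log2 0.30, adjusted p = 0.744), clusters in place of gates (log2 0.14, adjusted p = 0.578) and cells without adipocyte UMIs (log2 0.66, adjusted p = 0.109). It was also lost without young TN or aged TN (log2 0.54 in each case) and without young or aged 3D cold (log2 0.71 in each case), with adjusted p between 0.149 and 0.174. The summed adipocyte genes had 18.6 to 50.1 CPM in young and 26.5 to 88.7 CPM in aged Cd142+ libraries, and their part in the Pparg value was not tested beyond the cells without such UMIs. In Dpp4+ cells the Pparg value was 0.05 ± 0.18.

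**Figure D4:**
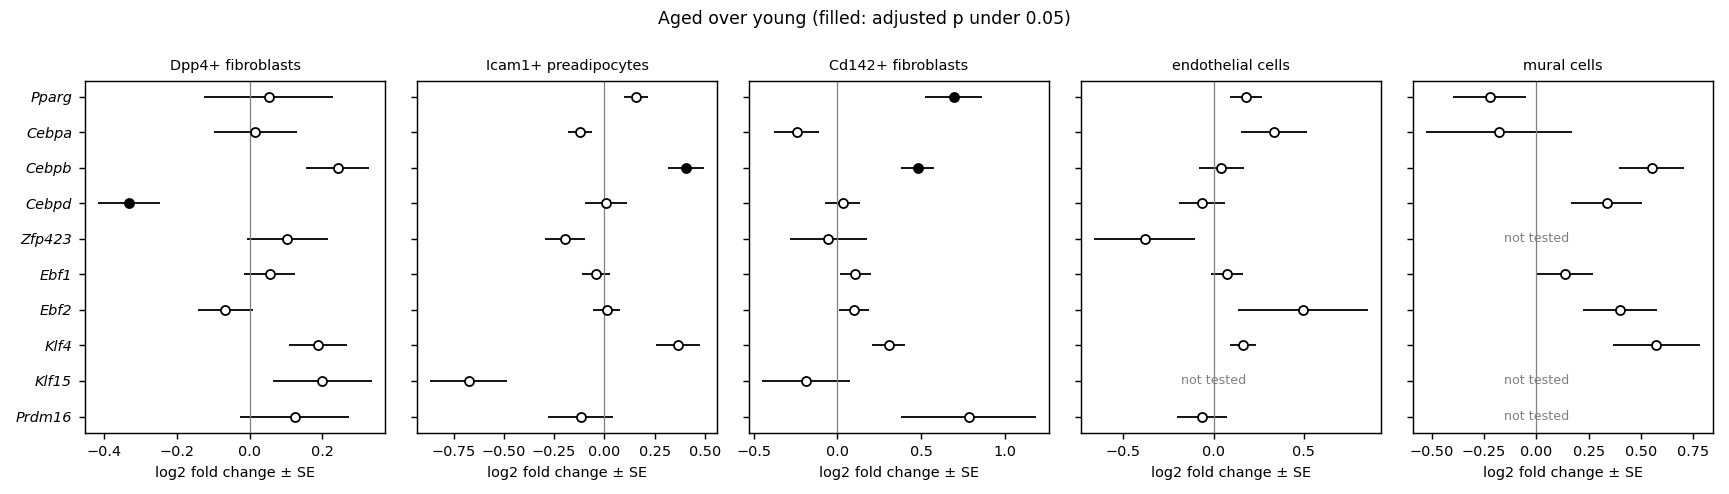
Log2 fold change of aged over young libraries (horizontal axis, with bars of 1 standard error) for the 10 genes (vertical axis), in 1 panel for each of the 5 classes, with filled points where the adjusted p was under 0.05. Filled points are Cebpd in Dpp4+ cells (-0.33), Cebpb in Icam1+ cells (0.40) and Pparg (0.69) and Cebpb (0.48) in Cd142+ cells, and "not tested" marks Klf15 in endothelial cells and Zfp423, Klf15 and Prdm16 in mural cells, which had too few UMIs.

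Klf15 in Icam1+ preadipocytes lay at the edge of the test. Young libraries had 3.99, 6.76 and 6.39 CPM (103, 214 and 158 UMIs) and aged libraries 3.77, 3.37 and 3.15 CPM (105, 91 and 41 UMIs). All aged values lay below all young ones, with log2 ratios of -0.08 at TN, -1.004 at 3D cold and -1.02 at 14D cold. The fitted difference was -0.67 ± 0.19 with an adjusted p of 0.0501. It passed in 7 alternatives, including without young TN (adjusted p = 0.00432) and without aged TN (log2 -0.97, adjusted p = 0.00502), and did not pass without aged 14D cold (log2 -0.55, adjusted p = 0.145) or with DESeq2 (adjusted p = 0.115). Whether the ratio differs between temperatures could not be tested with 1 library for each age and temperature.

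Klf4 was higher with age in each fibroblast class without passing the threshold, at 0.19 ± 0.079, 0.37 ± 0.11 and 0.31 ± 0.099 on the log2 scale in Dpp4+, Icam1+ and Cd142+ cells (adjusted p = 0.137, 0.0616 and 0.0912). The Icam1+ libraries had 3319, 4084 and 3396 CPM in young and 4932, 5036 and 3855 CPM in aged mice. DESeq2 called this difference (adjusted p = 0.00216). In cells thinned to 2000 UMIs Klf4 passed in Icam1+ (log2 0.37, adjusted p = 0.0353) and in Dpp4+ cells (log2 0.21, adjusted p = 0.0471). Icam1+ cells also passed with stricter gates (adjusted p = 0.0297), without normalization factors (adjusted p = 0.0451) and without a filter on low counts (adjusted p = 0.00535), Dpp4+ cells without young or aged 14D cold (adjusted p = 0.0233 and 0.0394) and without normalization factors (adjusted p = 0.0307), and Cd142+ cells without a filter (adjusted p = 0.0351). Klf4 belongs to the genes that cell isolation can induce. The summed level of 16 dissociation genes was 34434 to 35301 CPM in young and 30551 to 41417 CPM in aged Icam1+ libraries, highest in the aged TN library. In Icam1+ cells 3 of these 16 rose with age, led by Hspa1a (log2 0.92), where 7.42% of all genes rose. The part of cell isolation in the Klf4 and Cebpb values was not tested.

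The remaining genes, Cebpa, Zfp423, Ebf1, Ebf2 and Prdm16, gave age values between -0.24 and 0.12 in the 3 fibroblast classes, none past the threshold, apart from Prdm16 in Cd142+ cells. There all aged libraries lay above all young ones (1.85 to 2.88 against 3.69 to 4.95 CPM), on 7 to 14 UMIs each, with a value of 0.78 ± 0.40 and an adjusted p of 0.296. Counted over the list, age called 1 of 10 genes in Dpp4+ fibroblasts (lower; background 16.9%, with 8.43% higher and 8.43% lower), 1 of 10 in Icam1+ preadipocytes (higher; background 13.5%, with 7.42% higher and 6.07% lower) and 2 of 10 in Cd142+ fibroblasts (both higher; background 6.15%, with 3.38% higher and 2.77% lower). In each of the 3 classes a count of 1 or 2 of 10 genes is too small to set the list apart from all genes. At an unadjusted p under 0.05 the counts were 3, 4 and 3. Over all genes they were 3773 of 12911, 3836 of 13316 and 2193 of 10701.

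In the vessel classes edgeR called none of the genes by age, 0 of 9 tested in endothelial cells (background 1.64%) and 0 of 7 tested in mural cells (background 0.394%), and DESeq2 also called 0 in each. At an unadjusted p under 0.05 there were 1 and 3, against 1419 of 10147 and 644 of 6096 over all genes. The largest mural values were Klf4 at 0.57 ± 0.21 and Cebpb at 0.55 ± 0.16 (adjusted p = 0.322 and 0.171). Without aged TN, which gave 252 of the 718 mural cells, they became 1.01 and 0.82 with adjusted p of 4.87e-05 and 0.000653, Cebpd reached 0.62 (adjusted p = 0.0475), and without young TN Klf4 and Cebpb also passed (adjusted p = 0.000411 and 0.00243). Both also passed without a filter on low counts (adjusted p = 0.0128 and 0.00367), and Cebpb passed in cells thinned to 2000 UMIs (log2 0.66, adjusted p = 0.00928) and with all barcodes (adjusted p = 0.0171).

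Whether an age difference itself differed between fibroblast classes was tested as an interaction over the 18 sums. None of the 10 genes passed in edgeR or in DESeq2 for Icam1+ minus Dpp4+ (background 3.79%), Cd142+ minus Dpp4+ (background 1.06%) or Cd142+ minus Icam1+ (background 0.146%). An unadjusted p under 0.05 was found for 3, 3 and 2 of them, against 2158, 1453 and 914 of all 13715 genes. The largest of the first kind was Klf15 at -0.92 ± 0.29 (adjusted p = 0.0952), which passed without young TN (adjusted p = 0.0122), in cells thinned to 2000 UMIs (-1.40, adjusted p = 0.0415) and without a filter on low counts (adjusted p = 0.000436). Cebpd differed by 0.34 ± 0.13 (adjusted p = 0.198), and by 0.49 without aged TN (adjusted p = 0.0236), and without a filter it passed there and for Cd142+ minus Dpp4+ (adjusted p = 0.0147 and 0.0253). Pparg differed by 0.56 ± 0.18 between Cd142+ and Icam1+ (adjusted p = 0.457).

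Several genes downstream of PPARγ and C/EBPα changed with age. In Dpp4+ fibroblasts 6 rose and 1 fell of 16 tested, against 8.43% higher and 8.43% lower over all genes, and Fabp4 was at 0.90 and Lpl at -0.98 on the log2 scale. In Icam1+ preadipocytes 5 rose and 0 fell of 17 (7.42% higher and 6.07% lower over all genes), among them Plin2 (0.63) and Fabp4 (0.62), and in Cd142+ fibroblasts 3 rose and 0 fell of 14 (3.38% higher and 2.77% lower over all genes), namely Fabp4 (1.11), Plin2 (1.05) and Angptl4 (0.46). Mature adipocyte genes moved along with them: 3 of 6 rose in Dpp4+, 3 of 7 in Icam1+ (Cfd by 2.17 on the log2 scale) and 1 of 3 in Cd142+ cells, and their part in the change of the downstream genes was not tested.

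Among anti-adipogenic regulators, Runx1 rose with age in all 3 fibroblast classes (log2 1.27 in Dpp4+, 0.74 in Icam1+ and 1.51 in Cd142+ cells). With the other members of that list, 5 rose and 2 fell of 22, 6 rose and 0 fell of 21, and 1 rose and 0 fell of 21, in the same order of classes. Over all genes tested 16.9%, 13.5% and 6.15% changed with age in these classes, and no list was tested against these shares. Of the other pro-adipogenic regulators 2 of 20 changed in Dpp4+ cells (Creb1 0.22, Bcl6 -0.22), 2 of 21 in Icam1+ cells (Tle3 0.31, Rxrg -0.55) and 1 of 20 in Cd142+ cells (Klf5 -0.74). Of the beige regulators 2 of 13 changed in Dpp4+ cells (Tbx15 0.23, Thra -0.22), 2 of 14 in Icam1+ cells (Ppargc1a, the coactivator of mitochondrial biogenesis, 1.27, and Thrb 0.44) and 0 of 12 in Cd142+ cells.

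Exposure to cold called a single gene of the 10. In Icam1+ preadipocytes Cebpa averaged 62.1 CPM at TN, 60.0 CPM at 3D cold and 43.8 CPM at 14D cold, and both 14D cold libraries, at 46.2 and 41.4 CPM, lay below the other 4, at 57.3 to 64.6 CPM. The fitted log2 differences from TN were -0.02 at 3D cold and -0.49 at 14D cold, and the F test of both together gave an adjusted p of 0.0138. This was 1 of 10 genes against a background of 5.17% of all genes. The call was lost without young or aged 3D cold and with no age term (adjusted p = 0.475). It held without aged TN (log2 -0.50 at 14D cold) and without the aged 14D cold library (log2 -0.47 at 14D cold). Cebpa at 14D cold was also lowest among the young Dpp4+ libraries, at 14.5 CPM against 20.5 and 22.0 CPM, whereas the aged ones had 16.9, 21.6 and 19.3 CPM, lowest at TN (adjusted p = 0.308). Without aged TN, the library that stood apart in clustering, Cebpa passed in Dpp4+ cells (log2 -0.19 and -0.50, adjusted p = 0.00581), as it did without young TN (adjusted p = 0.0492).

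**Figure D5:**
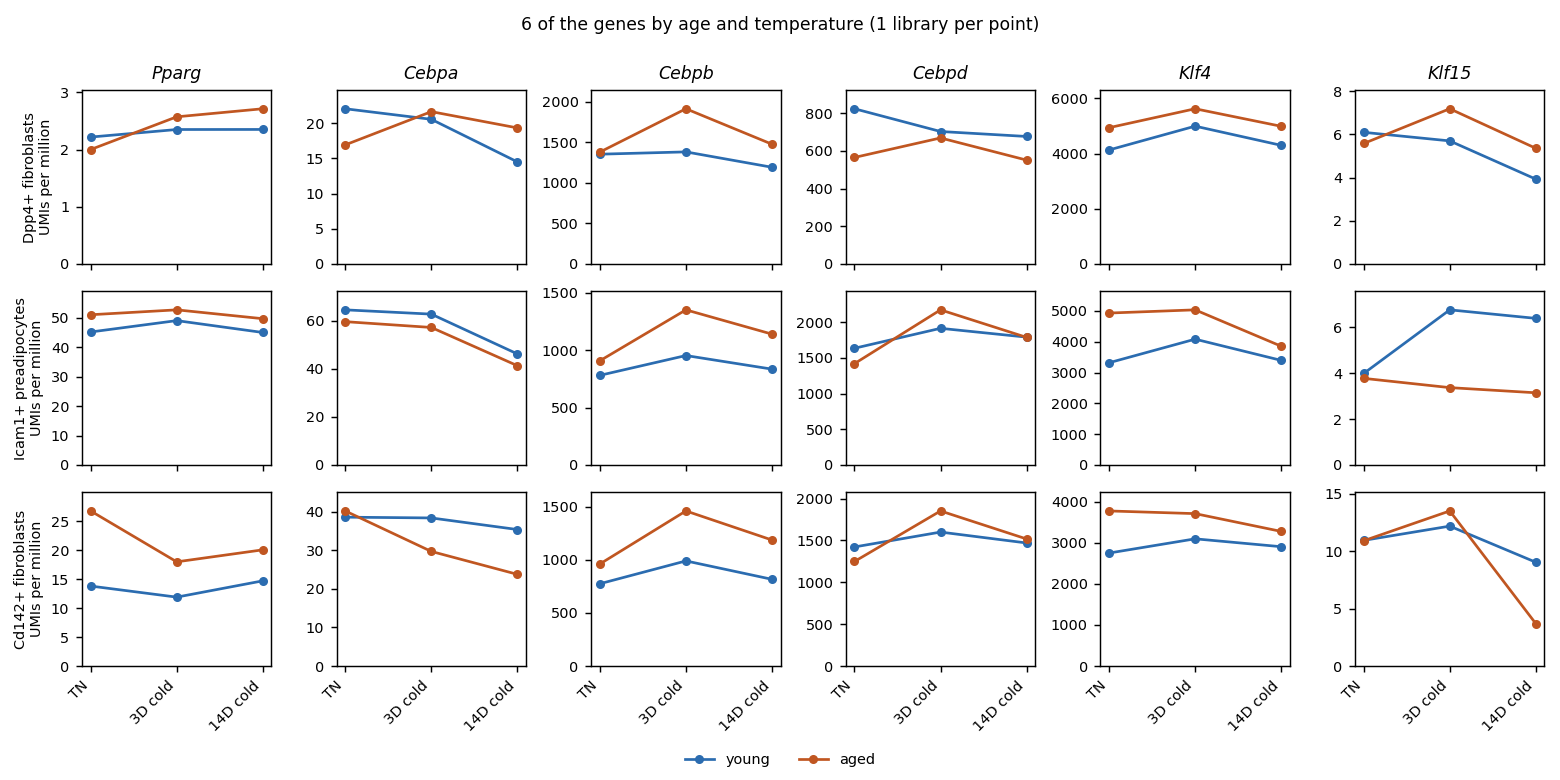
Levels of 6 of the genes (columns of panels) in the 3 fibroblast classes (rows of panels) at TN, 3D cold and 14D cold (horizontal axis) in CPM (vertical axis, linear from 0), with 1 line for young and 1 for aged libraries and 1 library per point. In Icam1+ preadipocytes Cebpa is lowest at 14D cold in both lines, Cebpb and Cebpd are highest at 3D cold in both, and the Klf15 lines lie close at TN and apart at 3D cold and 14D cold.

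Cebpb and Cebpd were highest at 3D cold in both ages in Icam1+ preadipocytes. Cebpd had 1635, 1914 and 1791 CPM at TN, 3D cold and 14D cold in young and 1419.5, 2173 and 1788 CPM in aged mice. The fitted differences from TN were 0.45 and 0.24 for Cebpd (adjusted p = 0.142) and 0.46 and 0.22 for Cebpb (adjusted p = 0.0914), and neither passed in edgeR, while DESeq2 called both (adjusted p = 0.0358 and 0.0164), as did edgeR without a filter on low counts (adjusted p = 0.00793 and 0.00323). Without young TN the Cebpb difference passed in edgeR (adjusted p = 0.0304). At an unadjusted p under 0.05 there were 4 of the 10 genes, against 3098 of 13316 over all genes.

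In Dpp4+ fibroblasts temperature called 0 of 10 genes (background 8.20%) and in Cd142+ fibroblasts 0 of 10 (background 1.30%), in edgeR and in DESeq2. An unadjusted p under 0.05 was found for 2 in each class, against 3215 of 12911 and 1329 of 10701 over all genes. Ebf2 in Dpp4+ cells was at -0.21 and -0.29 (adjusted p = 0.127) and Cebpb in Cd142+ cells at 0.48 and 0.18 (adjusted p = 0.147). Ebf2 passed without young TN, young 3D cold or young 14D cold (adjusted p = 0.000288, 0.0427 and 0.0119), in cells thinned to 2000 UMIs (adjusted p = 0.0386) and without a filter on low counts (adjusted p = 0.0190). Cebpb passed without young TN, young 14D cold or aged 14D cold (adjusted p = 0.000328, 0.0312 and 0.0256), with clusters in place of gates (adjusted p = 0.0416) and without a filter (adjusted p = 0.00830). With clusters Cebpa passed as well in Cd142+ cells (-0.33 and -0.62, adjusted p = 0.0303), and without young TN so did Cebpd (adjusted p = 0.00270). In Dpp4+ cells Klf15 passed without aged TN (-0.13 and -0.58, adjusted p = 0.0311), Cebpb without young TN or young 14D cold (adjusted p = 0.0372 and 0.0220) and Klf4 without young 14D cold (adjusted p = 0.0445). Among downstream genes, 4 of 17 tested changed with temperature in Icam1+ cells, where 5.17% of all genes did. Cd36 was at 1.59 and 2.04 above TN at 3D cold and 14D cold and Fabp4 at 1.49 and 1.46, while the Pparg values were 0.11 and -0.01 (adjusted p = 0.482). In the same libraries 3 of 7 mature adipocyte genes changed with temperature, led by Retn (2.22 at 3D cold), and their part in the Cd36 and Fabp4 values was not tested.

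Shares of cells with a UMI gave no test that could pass by age, since 3 against 3 libraries cannot go below an exact permutation p of 0.1. Among 30 such tests the smallest adjusted p was 0.6. The share of Icam1+ cells with a Klf15 UMI after thinning averaged 1.40% in young and 0.635% in aged libraries, lower in every aged library (two-sided exact permutation p = 0.1). For Pparg these shares were 8.42% and 9.13%, higher in every aged library (two-sided exact permutation p = 0.1), but 13.3% and 13.8% in cells thinned to 3000 UMIs (two-sided exact permutation p = 0.2) and, without thinning, 33.4% and 27.9%, lower with age (two-sided exact permutation p = 0.1).

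Over the 30 sums, the genes whose log2 level ran most like a member, among 7788 genes with at least 20 CPM in 1 class, were named by their Pearson correlation as a description. For Pparg they were Epas1 (0.989), Spaar (0.987) and Cbfa2t3 (0.984), and for Prdm16 they were Spint2 (0.973), Nectin2 (0.965) and Trp53i11 (0.965). For Ebf2 they were Fam129a (0.985), Prrx1 (0.981) and Twist1 (0.979), and for Ebf1 the closest was Daam1 (0.978). For Klf4 they were led by Ftl1 (0.967) and Adamts5 (0.962), for Cebpb by Samd4 (0.956) and Crtc3 (0.9502), and for Cebpd by Ggt5, a gate marker (0.934). Lower maxima were found for Zfp423 (Trim16, 0.843), Cebpa (Jund, 0.818) and Klf15 (Sumf1, 0.647). These values rest on 5 classes within 6 shared libraries.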

How the data were processed

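The deposited files are filtered matrices of raw counts, whole UMIs per gene and barcode, which the authors made with Cell Ranger 3.1.0 (per the file headers) against mm10; the submitters' processing notes also name R 4.1.1 and Seurat, which act after these counts. No column of another sample was present. Per library, barcodes with more than 200 genes and within 3 median absolute deviations of the medians were kept, leaving 57326 cells, of which 73.2% fell in a class (47.5% in aged 14D cold). A cell entered a class by its counts of marker genes, with doublets treated by limits on the markers of other classes and not by a caller. UMIs were summed per class and library. Plain totals gave CPM in the text, and tests used TMM factors, filterByExpr and edgeR 4.0.16 (R 4.3.3) quasi-likelihood F tests, with Benjamini-Hochberg adjustment over all genes tested and a threshold of 0.05. Standard errors were taken from the fold change and F. Class sums ranged from 334151 to 31660419 UMIs, and 3 UMIs is the floor for a gene at 0. Intervals cover counting error only.

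The 10 genes and all gene lists were chosen with earlier results of these data known, so counts over them are descriptions. From each list, up to 4 genes past the threshold with the largest change and at least 10 CPM in the higher group were named, every gene of a list where at most 5 passed could be named, and up to 3 genes most like each of the 10. Log2 correlations used a pseudocount of 1 CPM. Alternatives were DESeq2 1.42.0, RLE factors, no filter, no temperature or age term, all barcodes, thinned cells, stricter gates, Leiden clusters (leidenalg 0.10.2) in place of gates, and each library left out; cells without adipocyte markers and no normalization factors were added after seeing the data. Shares were compared with exact permutation tests. Counts were also simulated from the real sums, with 200 genes changed by 1 log2 unit between the ages. The age test recovered 83% of these in Dpp4+ (12750 genes), 84% in Icam1+, 68% in Cd142+, 76% in endothelial and 54% in mural sums. Smaller changes were not simulated, so these shares do not hold for them. Promoters are RefSeq sequence of GRCm38.p6, and gene positions are from GENCODE release 21 of the mouse annotation. Of the 10 genes, 7 overlap a gene on the opposite strand, and how strand entered the counting is not given in the sources used here.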

Additional observations from a re-analysis of the deposited data

Results flagged for a closer look

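The highest and lowest library of each of the 10 genes in each of the 5 classes were set against the other libraries in 50 Dixon tests at the 95% level, of which chance marks about 1 in 20, and 3 libraries stood apart. Ebf2 in endothelial cells was at 11.4 CPM, from 17 UMIs, in the aged 14D cold library against 4.74 to 5.77 CPM in the others. Klf15 in endothelial cells was at 9.43 CPM, from 23 UMIs, in the aged 3D cold library against 2.00 to 4.26 CPM. Prdm16 in Dpp4+ fibroblasts was at 4.90 CPM, from 74 UMIs, in the aged 14D cold library against 3.36 to 3.92 CPM. The aged 14D cold library was the shallowest of the 6 over all kept cells. Its endothelial cells had a median of 2837 UMIs, the lowest of that class. Its Dpp4+ cells, at 7254 UMIs, lay above those of aged TN (7226) and aged 3D cold (7014). The part of depth in the Ebf2 and Prdm16 values was not tested.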

How the results depend on the processing

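Of 44 results for single genes past the threshold, 31 remained past it in every alternative run; the 44 gave 665 alternative values, of which 617 kept their side, 48 lost it and 0 changed sign. Of 112 results not past it, 86 stayed so throughout, and 69 of 1732 values passed. With 1 library per age and temperature, leaving out a library of 1 temperature leaves the other library of that temperature without weight in the age test. No paired analysis was possible because each group holds 1 library, so that no groups share 2 replicate numbers; age was compared within temperatures and classes within libraries.

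Counts of genes called over all genes moved more. By age, the 2176 genes of Dpp4+ fibroblasts became 1157 with DESeq2, 705 with no temperature term and 1386 in thinned cells (1533 to 2353 with 1 library left out). The 1796 of Icam1+ preadipocytes became 1023, 281 and 977 under the same 3 settings (610 to 1652). The 658 of Cd142+ fibroblasts became 217, 216 and 236, with 1052 without a filter, 386 with stricter gates and 1634 with clusters (195 to 876). The 166 of endothelial cells became 44, 22 and 82, with 488 without a filter and 350 with clusters (80 to 303). The 24 of mural cells became 11, 3 and 58, with 125 without a filter, 467 with all barcodes and 15 in cells without adipocyte markers (13 to 147). By temperature, the 1059 genes of Dpp4+ cells became 557 with DESeq2, 2142 without a filter and 0 with no age term (1016 to 1842). The 689 of Icam1+ cells became 1920 without a filter and 0 with no age term (123 to 1161). The 139 of Cd142+ cells became 69 with DESeq2, 559 without a filter, 1 with no age term, 30 in thinned cells, 58 with stricter gates, 465 with clusters and 59 without adipocyte markers (6 to 647). Between Cd142+ and Icam1+ cells, 3376 became 2069 in thinned cells and 5139 with clusters (2635 to 3134). For the interactions, 520 (Icam1+ minus Dpp4+) became 987 without a filter and 258 in thinned cells (257 to 485), 145 (Cd142+ minus Dpp4+) became 447, 63 and, with stricter gates, 76 (52 to 111), and 20 (Cd142+ minus Icam1+) became 40 with DESeq2, 196 without a filter, 44 with stricter gates and 106 with clusters (1 to 20). The causes were not tested.

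Scaling moved the share of calls that were higher with age by over 10 points in 2 classes, from 44.6% to 29.5% with DESeq2 and 33.5% with no normalization factors in endothelial cells, and from 75.0% to 63.6% and 61.1% in mural cells. Against mural cells DESeq2 moved the median of all genes by -0.11.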

Other observations

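Clustering without gates split the endothelial cells in a way the class values do not show. Pparg was at 415 CPM in the larger endothelial cluster (3221 cells, 4960 UMIs) and at 68.1 CPM in the smaller one (739 cells, 311 UMIs), where Ebf2 was at 40.7 against 14.0 CPM and Prdm16 at 19.1 against 43.3 CPM. The smaller cluster also had a higher mean number of detected fibroblast markers, 2.19 against 1.39 of 8, and a higher median depth, 5336 against 3166 UMIs. The mural cluster had 114 CPM of Pparg. Clusters 0 and 5, which hold most Icam1+ cells of the other libraries and of the aged TN library respectively, had 50.9 and 54.4 CPM. Clusters were built from the same cells, so these values are descriptions with no test.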
